A study of Caenorhabditis elegans with 2 samples.

Results

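Binding of SEA-1 was examined at 9 genes of the T-box family, the family of transcription factors to which SEA-1 itself belongs: tbx-2, tbx-8, tbx-9, tbx-11, tbx-35, tbx-37, tbx-38, mab-9 and mls-1. These 9 were a chosen list among the 19973 protein-coding gene records of the annotation, and the question was whether SEA-1 sits at genes of its own family. A peak was given to a gene when its summit lay in the gene or in the 2000 bp before its annotated 5′ end. Of the 9, 7 lie on chromosome III and 2 on chromosome II. A further 13 T-box gene records and 10 genes known as regulators or partners of T-box factors were read in the same way, for comparison.

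The values came from chromatin immunoprecipitation and sequencing of whole early embryos (0 hour, collected by egg bleaching) of strain OP129. This strain carries the integrated fosmid transgene wgIs129, sea-1::TY1 EGFP 3xFLAG, together with unc-119(+), in an unc-119(ed3) background, so that every sample holds tagged SEA-1 and the same rescued mutation. Chromatin was sonicated and SEA-1 was pulled down by its GFP tag. Both biological replicates belong to the study's only group, without another condition to compare, no values of a control immunoprecipitation were used here, and the number of reads behind the peaks is unknown. Whole embryos hold many cell types, and binding in a few cells cannot be told apart from weak binding in many.

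T-box factors share a DNA-binding domain, the T-box, and many of them set the fate of a group of cells in the embryo. In Caenorhabditis elegans they are known from the pharynx, muscle, skin and hindgut, and SEA-1 from the counting of autosomes in sex determination. The sequence bound by the T-box, first worked out for vertebrate Brachyury, holds the core GGTGTGA.

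Peak strength is given as the deposited signal value, which has no stated unit, and ranks run from 1 for the strongest peak of a list. The ranked list of both replicates, called the series ranked list here, held 103831 peaks with a median signal value of 23.7. The ranked lists of replicate 1 and replicate 2 held 71678 and 68844 peaks, with medians of 16.6 and 16.4. Ranked lists reach far below the authors' thresholds: 81.2% of all protein-coding genes had a series ranked summit and 74.2% had a ranked summit in both replicates. The conservative list, which keeps 1249 peaks, gave a summit to 6.11% of protein-coding genes. Signal values have no stated common scale between lists, so each gene was also placed, within each list, among the protein-coding genes of like length (the shorter of a pair at least 0.8 times the longer), as the percent of those genes whose strongest peak was weaker.

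The DNA at the strongest peaks of tbx-2, tbx-37 and tbx-8 is shown first, because in these 3 members the strongest series ranked summit lay within 200 bp of the gene's 5′ end. Each sequence is read on the gene's own strand towards the gene, from the WBcel235 assembly, with the 21 bases centred on the summit in capitals. The tbx-2 stretch is chrIII:5136350-5136550 on the minus strand, 254 to 54 bp before the gene. The tbx-37 stretch is chrIII:11227168-11227368 on the minus strand, 243 to 43 bp before the gene. The tbx-8 stretch is chrIII:10347206-10347348 on the plus strand, and stops 1 bp before the gene.
tbx-2: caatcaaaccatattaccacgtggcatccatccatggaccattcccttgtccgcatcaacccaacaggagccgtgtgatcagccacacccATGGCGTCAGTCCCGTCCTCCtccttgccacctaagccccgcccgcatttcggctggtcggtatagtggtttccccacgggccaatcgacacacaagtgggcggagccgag
tbx-37: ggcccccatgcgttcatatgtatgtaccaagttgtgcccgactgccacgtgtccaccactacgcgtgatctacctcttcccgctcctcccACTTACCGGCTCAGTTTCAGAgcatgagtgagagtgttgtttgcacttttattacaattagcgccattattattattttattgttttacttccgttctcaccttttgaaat
tbx-8: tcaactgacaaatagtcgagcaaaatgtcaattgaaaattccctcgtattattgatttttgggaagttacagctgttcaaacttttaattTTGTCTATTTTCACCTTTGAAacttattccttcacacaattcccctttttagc

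None of these stretches held GGTGTGA on either strand. The tbx-2 stretch held the shorter form of the core, GGTGTG, once, read as CACACC on the printed strand and starting 17 bp before the summit. It also held CACGTG, starting 83 bp before the summit, and the tbx-37 stretch held CACGTG starting 55 bp before its summit. Their base composition differed: in windows of 201 bp centred on the summit, 59.2% of the bases were G or C at tbx-2, 45.3% at tbx-37 and 39.3% at tbx-8, whose window runs on into the gene. The median over all series ranked peaks was 38.3% and over the conservative peaks 46.8%, and 99.5% of series ranked windows had a lower share than tbx-2. Whether base composition had a part in the height of the tbx-2 peak was not tested.

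One member, tbx-2, held a conservative peak, and the other 8 held none. As 6.11% of all protein-coding genes had such a summit, a count of 1 in 9 is no result about the family. The second thresholded list of both replicates gave the same member, beside 6.04% of all genes. No member had a summit in the replicates' own thresholded lists, which reached 2.71% of genes in replicate 1 and 2.85% in replicate 2. In the ranked lists 8 of the 9 members had a series summit, beside the 81.2% of all genes, and 8 of the 9 had a summit in both replicates, beside the 74.2%. The member without a series peak was tbx-11, and the member without a peak in replicate 2 was mls-1. With only 9 members, these counts of ranked peaks are no result about the family.

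The 8 members with series ranked peaks held 47 of them, with signal values from 2.08 to 82.0 and a median of 25.5. Of the 47 summits, 17 were intergenic, 19 lay in introns, 9 in coding exons, 1 in a 5′ UTR and 1 in a 3′ UTR. Small RNA genes (tRNA, snoRNA, snRNA) were more than 100 bp away from every one of them. Overlap with the replicates' own ranked peaks was incomplete: 15 of the 47 (31.9%) overlapped a ranked peak of both replicates by at least 1 bp, 6 of replicate 1 alone, 16 of replicate 2 alone and 10 of neither. Over all series ranked peaks 42.4% overlapped both. Of the 5 member peaks within 200 bp of a 5′ end, 4 overlapped both replicates and 1, at tbx-9, replicate 2 alone. The share for all series ranked peaks that near a 5′ end was not computed. The 4 of 5 are thus no result about the members.

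**Figure D1:**
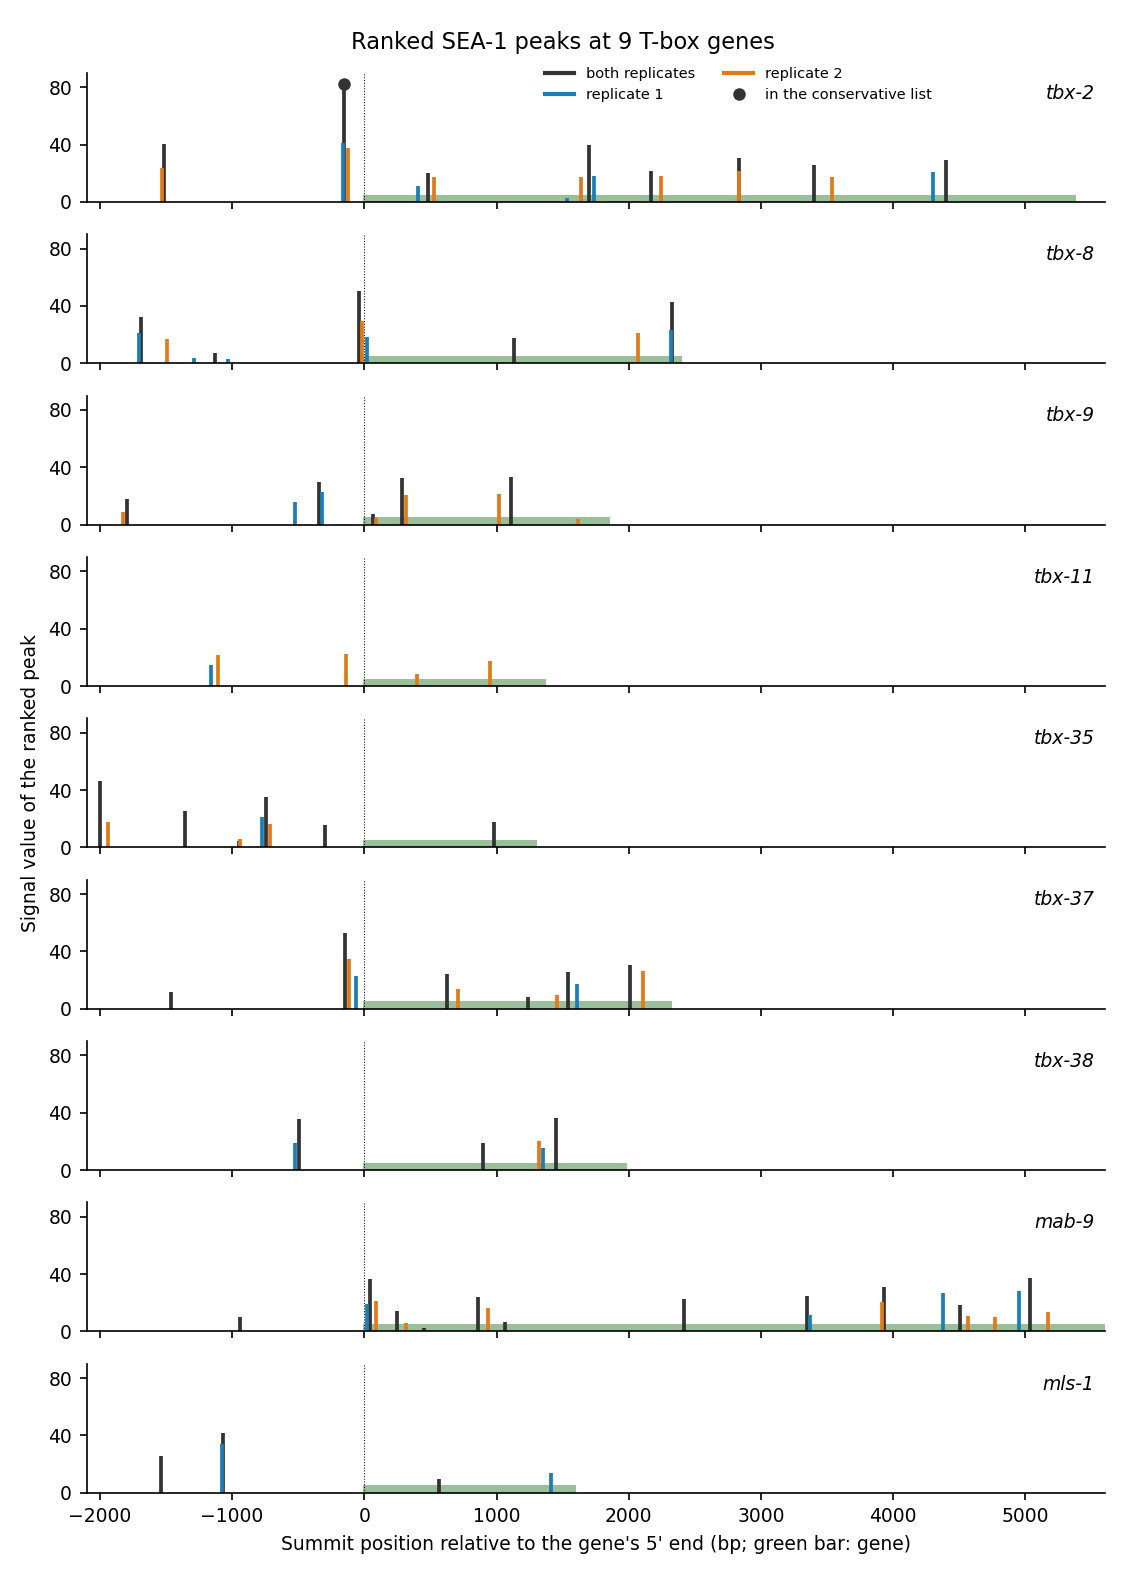
Position (bp from the annotated 5′ end, negative upstream) and deposited signal value of every ranked peak summit at the 9 T-box genes, in the list of both replicates (black) and in those of replicate 1 (blue) and replicate 2 (orange), which are drawn slightly to each side of their positions; the green bar is the gene and the dot marks the conservative list. The tbx-2 peak 154 bp upstream, at 82.0, stands above the other series peaks, of which the next is the 52.6 of tbx-37.

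tbx-2, which is needed to make the muscles of the anterior pharynx, carried the strongest peak of the 9 genes. The peak, chrIII:5136290-5136609, had its summit at position 5136450, 154 bp before the 5′ end of tbx-2 (chromosome III, 5130923 to 5136296, minus strand), in intergenic DNA. Its signal value in the series ranked list was 82.0, rank 1108, above 98.9% of the list. In the conservative list it stood at rank 920 of 1249, below the list's median of 95.5, so it was among the weaker peaks of that list.

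The same peak was the strongest at tbx-2 in each replicate. In replicate 1 it had a signal value of 41.5 with the summit 134 bp upstream (rank 1643), and replicate 2 had 37.5 with the summit 154 bp upstream (rank 2184). Among genes of like length, tbx-2 was at percentile 92.0 in the series ranked list, 87.6 in replicate 1 and 84.3 in replicate 2. Of its 1989 genes of like length, 9.40% had a conservative summit. The deposited irreproducible discovery rate score, on which a score of 2 stands for a rate of 0.01, was 2.35 for the series ranked peak and 1.03 and 0.655 for the peaks of replicates 1 and 2, and the peak overlapped no row of either replicate's own thresholded list.

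The other 7 series ranked peaks of tbx-2 were weaker, from 20.3 to 40.4. The second strongest, at 40.4, lay 1512 bp upstream in an intron of the neighbour Y54H5A.2, and only replicate 2 had a ranked peak there, at 23.5. The third, at 39.6, lay 1701 bp into the gene in an intron, and overlapped peaks of 18.0 (replicate 1) and 17.6 (replicate 2). Of the remaining peaks inside the gene, only that 485 bp from the 5′ end overlapped ranked peaks of both replicates, at 11.1 and 17.5. With 8 peaks, tbx-2 had no more than genes of like length, whose median was 9.

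tbx-37 and tbx-38 are a closely related pair with overlapping roles in the descendants of the anterior blastomere ABa, where they act in making mesoderm. The strongest peaks of the pair differed in place and level. At tbx-37 (chromosome III, 11224808 to 11227125, minus strand) the summit lay 143 bp upstream, with a signal value of 52.6 (rank 6971). Replicate 2 had its summit at the same base, with 34.8 (rank 3056), while replicate 1 had 22.6 at 34 bp upstream (rank 18787). The percentile of tbx-37 was 77.6 in the series ranked list but 49.4 in replicate 1 and 89.3 in replicate 2, so the replicates did not place it alike. Inside the gene, peaks of 30.4 in a coding exon at 2006 bp and 25.5 in an intron at 1544 bp came next. The first of these overlapped a peak of replicate 2 alone, at 26.6, and the other overlapped peaks of both replicates, at 17.2 and 9.34. Its 3 remaining series peaks had 8.07 to 24.2.

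At tbx-38 (chromosome III, 11784082 to 11786061, minus strand) the strongest peak, at 36.6, lay 1447 bp into the gene in an intron, and overlapped peaks of 15.5 in replicate 1 and 20.3 in replicate 2. A peak 491 bp upstream had 35.6 and a counterpart in replicate 1 alone, at 19.1. The last of its 3 peaks, at 19.2, lay in an intron at 896 bp and overlapped no ranked peak of a replicate. No series ranked summit of tbx-38 lay within 200 bp of its 5′ end. Its percentiles were 47.9, 39.4 and 48.2 in the series list, replicate 1 and replicate 2, below the middle in all 3 lists. Repeated DNA can leave reads without a single place: 15.8% of the 31-base stretches in the window of tbx-38 occur elsewhere in the genome, against 4.36% at tbx-37 and a median of 0.820% over 1000 protein-coding genes, whose 90th percentile was 22.6%. Within the gene alone the order was the other way, with 5.49% at tbx-38 and 8.04% at tbx-37. The strongest summit window of neither gene held a repeated stretch of that length, but those windows cover only peaks that were called. Whether repeated DNA had a part in the levels of tbx-38 was not tested.

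tbx-35 specifies the MS blastomere, which gives rise to pharynx and body muscle, under the control of the GATA-type factors MED-1 and MED-2. Its strongest series ranked peak, at 46.6, lay 1996 bp upstream, 4 bp inside the window's limit, and overlapped a peak of replicate 2 alone, at 17.4. The peak supported by both replicates lay 747 bp upstream in intergenic DNA, with 35.5 in the series list, 21.0 in replicate 1 and 16.1 in replicate 2. Another, at 25.5, lay 1359 bp upstream and overlapped no ranked peak of a replicate, and 3 more had 4.17 to 17.5. The percentile of tbx-35 (chromosome II, 5524101 to 5525397, minus strand) was 73.5 in the series list, 52.7 in replicate 1 and 42.1 in replicate 2. In the other series ranked list, where its strongest peak in the window was 35.5, it was 51.2.

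tbx-8 and tbx-9 are neighbours on chromosome III, 5490 bp apart and pointing away from each other, and are known to act redundantly in the shaping of the embryo's body. tbx-8 (10347349 to 10349740, plus strand) had its strongest peak 43 bp upstream, at 50.7 (rank 8036). Replicate 2 had 29.2 at 45 bp upstream, and replicate 1 had 18.0 with its summit 51 bp downstream, in the 5′ UTR. A second peak, at 42.97, lay 2328 bp into tbx-8 in its 3′ UTR, and overlapped peaks of both replicates, at 23.6 in replicate 1, its strongest of the gene, and 23.4 in replicate 2, whose summit lay past the 3′ end of tbx-8. Another, at 32.4, lay in intergenic DNA 1687 bp upstream, with 21.3 and 16.8 in the replicates, and 2 more had 7.45 and 17.3. The percentiles were 73.6, 52.4 and 77.5, which put tbx-8 above the middle in all 3 lists. Of the 9 members only tbx-2 and tbx-8 were, and the share of all genes that are was not computed.

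tbx-9 (10340006 to 10341858, minus strand) had no leading peak. Its 3 strongest series peaks had 33.1 in an intron 1113 bp from the 5′ end, 32.8 in a coding exon at 285 bp and 29.8 in intergenic DNA 342 bp upstream. Peaks of replicate 2 alone overlapped the first and second, at 21.3 and 20.8, and a peak of replicate 1 alone overlapped the third, at 23.1. The other 2 series peaks of tbx-9 had 7.14 and 17.7. The percentiles of tbx-9 were 42.8, 56.9 and 53.8, near the middle of the genes of like length.

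mab-9, which is needed for the hindgut and the male tail, held the most series ranked peaks, 11, spread over its 5612 bp on chromosome II (516024 to 521635, plus strand). Genes of like length had a median of 9. The strongest, at 37.5, lay 5032 bp into the gene in an intron, with 28.1 in replicate 1 and 13.3 in replicate 2. In that summit's 201 bp window, 49 of 171 stretches of 31 bases occur elsewhere in the genome. The second, at 36.4, lay in the 5′ UTR, 45 bp from the 5′ end, and was in both replicates, at 18.8 and 21.2. The third, at 31.1, lay 3928 bp into the gene in an intron and overlapped a peak of replicate 2 alone, at 20.6. The other 8 had 2.08 to 24.5. The strongest peak of genes of like length had a median of 48.2, and 37.5 put mab-9 at percentile 24.2 among genes of like length, with 52.2 and 25.9 in the replicates.

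mls-1, which sets the fate of uterine muscle in the larva, differed most between the replicates. Its strongest series peak, at 41.5, lay 1066 bp upstream in intergenic DNA. Replicate 1 had 33.8 there (rank 4076), and replicate 2 had no ranked peak in the window at all. The nearest replicate 2 summits lay 2513 bp upstream, at 20.7, and 252 bp past the 3′ end of the gene. With 5000 bp upstream, mls-1 had a ranked peak in both replicates. The other series peaks, of 25.8 at 1537 bp upstream and 9.77 in an intron at 563 bp, overlapped no ranked peak of a replicate. The percentile of mls-1 (chromosome III, 7460341 to 7461934, plus strand) was 62.3 in the series list, but 88.3 for replicate 1 against 12.5 for replicate 2. Of the 171 stretches of 31 bases at its strongest series summit, 37 occur elsewhere in the genome.

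tbx-11 (chromosome III, 6045615 to 6046981, minus strand) was the member without a series ranked peak, although both replicates had a peak with its summit at the same base, 1131 bp upstream. Its signal value there was 14.8 in replicate 1 and 21.8 in replicate 2. Replicate 2 had 3 more peaks, of which the strongest, at 22.6, lay 164 bp upstream. The nearest series summits lay 95 bp past the 3′ end of the gene, at 11.1, and 13129 bp upstream, at 52.6. Its percentile was 12.7 in the series list, where it tied with the other genes without a peak, 33.9 in replicate 1 and 62.4 in replicate 2.

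**Figure D2:**
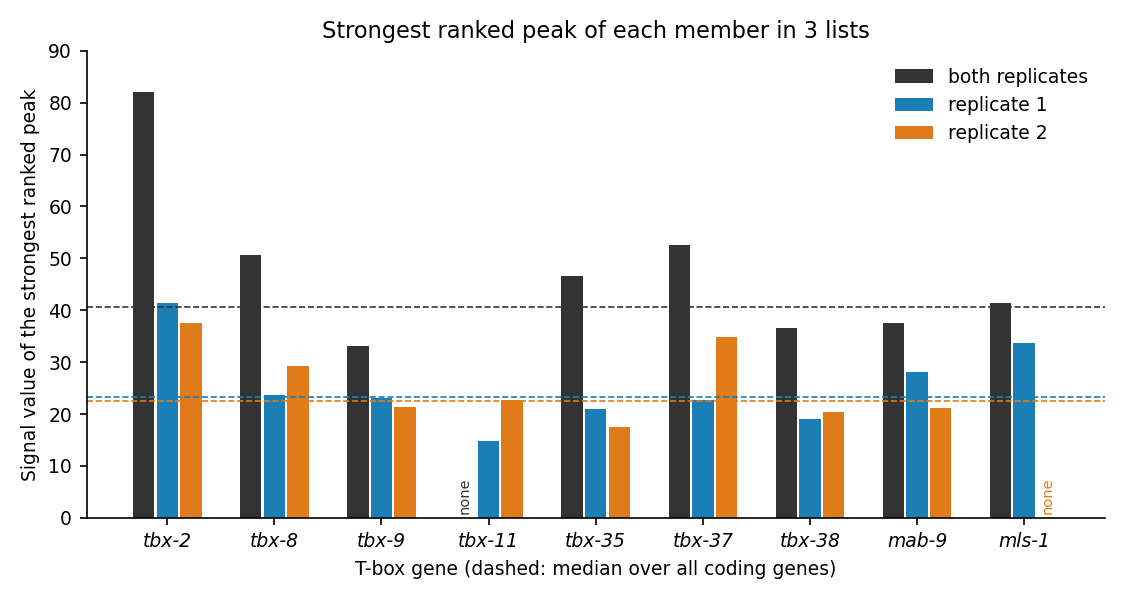
Deposited signal value of the strongest ranked peak of each member in the list of both replicates (black bars) and in those of replicate 1 (blue) and replicate 2 (orange), with the median over all protein-coding genes of each list as a dashed line; lists have no stated common scale. Only tbx-2 and tbx-8 exceed the median of all genes in all 3 lists, and the share of all genes that do so was not computed. tbx-11 and mls-1 each lack a peak in 1 list.

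Within the 9, the replicates did not fix a full order. By the mean percentile of the 2 replicates the order was tbx-2 (85.9), tbx-37 (69.4), tbx-8 (65.0), tbx-9 (55.4), mls-1 (50.4), tbx-11 (48.1), tbx-35 (47.4), tbx-38 (43.8) and mab-9 (39.03). The ranges spanned by the replicates overlapped in all 8 neighbouring pairs of that order, tbx-2 and tbx-37 included. Some members further apart did not overlap. The range of tbx-2, 84.3 to 87.6, lay above those of tbx-8, tbx-9, tbx-11, tbx-35, tbx-38 and mab-9, but within those of tbx-37 and mls-1. The spread within a gene ran from 53.8 to 56.9 at tbx-9 to 12.5 to 88.3 at mls-1.

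As a list, the members stood near the middle of all genes. The median percentile of the 9 was 62.3 in the series ranked list, 52.4 in replicate 1 and 53.8 in replicate 2, and 51.2 in the other series ranked list, where 50 is the middle of the genes of like length. The series median is the value of mls-1, the member whose replicates differed most (88.3 and 12.5). The median of their strongest series signal values was 41.5, and that of all protein-coding genes was 40.7. Above percentile 50 lay 5 members in the series list, 6 in replicate 1 and 5 in replicate 2.

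A series ranked summit within 200 bp of the 5′ end was found at 5 of the 9 members, tbx-2, tbx-8, tbx-9, tbx-37 and mab-9, beside 39.5% of all protein-coding genes. In tbx-2, tbx-8 and tbx-37 this summit was also the gene's strongest, and in tbx-9 it was a weak peak of 7.14.

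**Figure D3:**
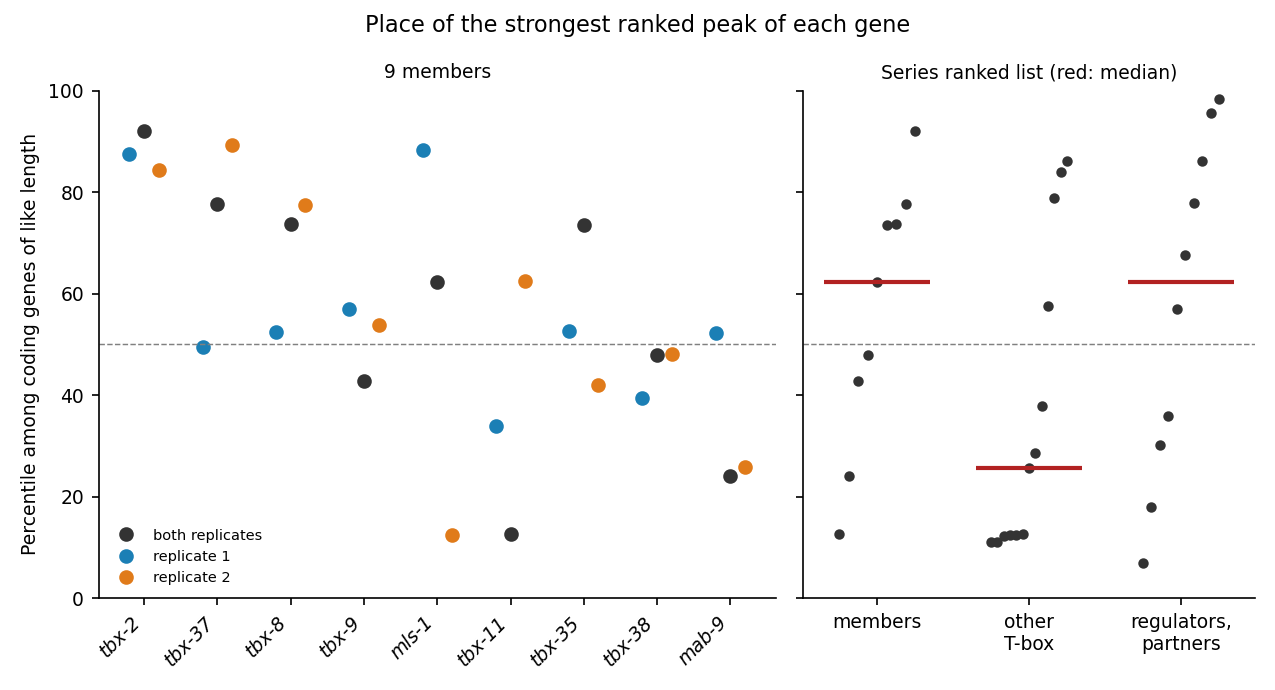
Percentile of each gene's strongest ranked peak among protein-coding genes of like length. The left panel gives the 9 members in order of their replicates' mean, in 3 lists, and the right panel gives the series ranked list for the members, 13 other T-box records and 10 regulators or partners, with red medians at 62.3, 25.6 and 62.2; mls-1 spans 12.5 to 88.3 between the replicates.

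The limit of 2000 bp left some peaks out. The nearest series summit outside it was at tbx-9, 2033 bp upstream with 8.47. At tbx-2 it was 2676 bp upstream with 52.0, and at tbx-37 it was 2881 bp upstream with 67.6, stronger than any peak of tbx-37 inside the window. At mab-9 and tbx-8 summits of 45.8 and 36.9 lay 2133 bp and 2331 bp upstream. At mls-1 a series summit of 19.4 lay 2533 bp upstream.

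The T-box core was searched at the peaks as GGTGTGA on both strands, within 100 bp of each summit. None of the 47 series ranked peaks of the members held it, and none of the 9 promoters did, taken from 250 bp before to 50 bp after the 5′ end. Of all series ranked windows 1.59% held it, of the conservative windows 1.60% and of all coding promoters 2.30%. The shorter GGTGTG, which every GGTGTGA also contains, was held by 4 of the 47 windows, at tbx-2 154 bp upstream, in a coding exon of tbx-8, and upstream of tbx-9 and tbx-35. Over all series ranked windows the share was 5.70%, over the conservative windows 9.77% and over all coding promoters 7.60%.

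CACGTG, searched after its letters had been seen in the printed stretches, was held by 5 of the 9 promoters: tbx-2, tbx-11, tbx-37, tbx-38 and mls-1. The promoters of tbx-2 and tbx-37 overlap the stretches that led to the search, so their matches were known beforehand. Of all coding promoters 5.82% held it, and of the 13 other T-box promoters 2 did. The share of G and C in the 5 promoters ran from 42.3% to 56.3%, beside a median of 34.3% over all coding promoters. At the peaks, 4 of the 47 windows held it, those of tbx-2 154 bp upstream, of tbx-37 143 bp upstream and 1238 bp into the gene, and of mab-9 5032 bp into the gene, beside 4.22% of all series ranked windows and 2.88% of the conservative windows. The promoters with CACGTG included tbx-2, with the strongest peak, and tbx-11, without a series ranked peak. A match of these letters is a description and shows no factor bound.

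sea-1 itself, which encodes the tagged factor, had no ranked peak in any of the ranked lists. Its record (chromosome II, 3671908 to 3673593, minus strand) lies in a gap of the series ranked list, with the nearest summits 26162 bp and 25702 bp away on its sides. Of the series list's 103825 gaps between summits, 370 exceeded 20000 bp, and the median was 608 bp. The gap is not particular to sea-1: all 6 of the other T-box records without a series ranked peak, sea-1 among them, lie in gaps of more than 20000 bp. Both tbx-30 records share a gap of 61791 bp, and tbx-39 and tbx-40 share a gap of 68315 bp. tbx-36 lies at the edge of its gap, with a summit 426 bp from the gene. How many of all genes without a series ranked peak lie in such gaps was not counted. The strain carries tagged sea-1 in its fosmid transgene besides the gene at this place, and DNA from the copies cannot be told apart in these lists. Of the 31-base stretches in the sea-1 window 7.25% occur elsewhere in the reference genome.

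The 13 other T-box records had a median percentile of 25.6 in the series list, 20.0 in replicate 1 and 27.1 in replicate 2, below the members' medians. Above percentile 50 in all 3 lists lay 4 of the 13, beside 2 of the 9 members. The share of all genes that do so was not computed, so these counts are no result about the family. None of the 13 had a conservative summit, beside the 6.11% of all genes. A series ranked peak was found at 7 of the 13, beside the 81.2% of all genes, and the other 6 were sea-1, both records that carry the symbol tbx-30, tbx-36, tbx-39 and tbx-40. At the tbx-30 records 93.1% of the 31-base stretches are repeated, and at tbx-39 and tbx-40 16.6% and 16.5%. For tbx-32 and tbx-31, which have series ranked peaks, the shares are 16.5% and 12.1%. The highest of the 13 were tbx-32, tbx-34 and tbx-31, at percentiles 86.0, 83.9 and 78.9. tbx-34, with a strongest peak of 55.2, was 87.3 in replicate 1 and 66.3 in replicate 2. At tbx-36 no such stretch is repeated, and tbx-43 has 12.7% with 11 series peaks. tbx-36 had no ranked peak in replicate 1 but 4 in replicate 2, the strongest at 22.3, percentile 59.5. The difference between the family lists was not tested, nor was a part of repeated DNA in the missing peaks.

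Among 10 regulators and partners, 9 had a series ranked peak, beside the 81.2% of all genes, and 2 a conservative peak, beside the 6.11%. The 10 were chosen with earlier results of these data known, so these counts are no result about T-box partners. ubc-9, which encodes the enzyme that joins SUMO to proteins, had its peak 250 bp upstream with a signal value of 103.3, and 62.0 and 41.9 in the replicates. unc-37, which encodes a Groucho-related corepressor, had its peak 367 bp upstream with 85.8, and 38.8 and 49.9 in the replicates. Their percentiles were 98.2 and 95.7 in the series list, above tbx-2 at 92.0. Like the tbx-2 peak, neither overlapped a row of a replicate's own thresholded list. The protein products of both genes are known to act with T-box factors of the worm.

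**Figure D4:**
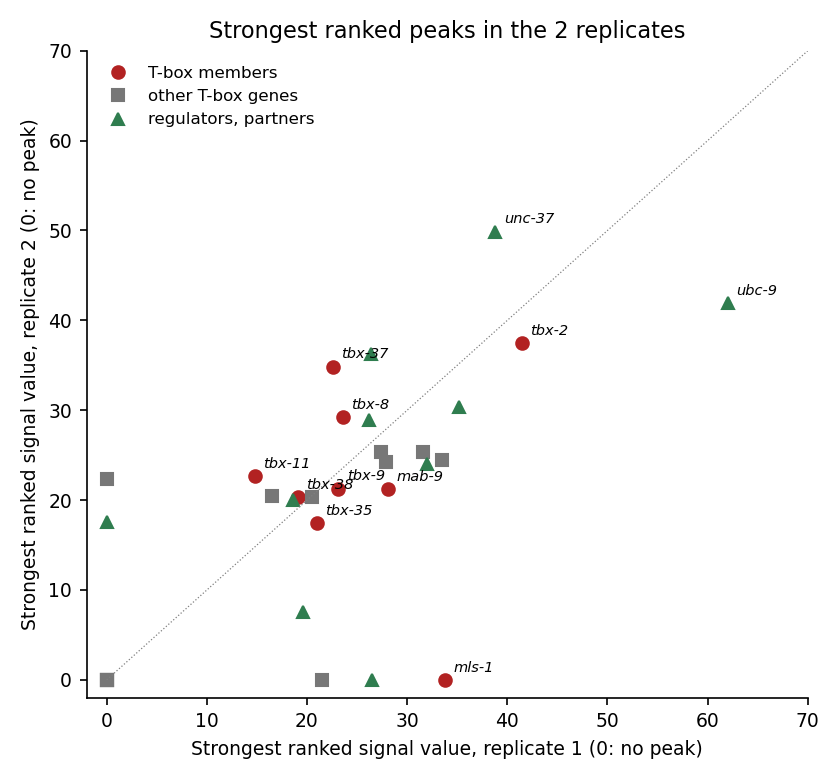
Strongest ranked signal value of each gene in replicate 1 (x axis) and replicate 2 (y axis), for the 9 T-box members (red circles), 13 other T-box records (grey squares) and 10 regulators or partners (green triangles), with genes without a peak at 0 and equality dotted. tbx-2, ubc-9 and unc-37, the genes with a conservative peak, lie above 37 in both replicates, and mls-1 lies at 33.8 and 0.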

How the data were processed

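Peak lists from 2 biological replicates of 1 group (early embryo, by the labels' developmental stage) were analysed; replicate numbers are those of the labels. Per the labels the assembly is ce11. Series lists were made by the authors from both replicates' alignments, and each own list from 1 replicate's, per the deposited texts that come with the samples. The sources used here name no aligner, peak caller or software version and give no depth, so no counting error could be computed. Peak strength is the signal value that the authors deposited, whose normalization is not stated. The deposited score of the ranked lists was read, from its values, as the −log10 of the irreproducible discovery rate. Which pair of peak sets each of the 2 series ranked lists compares is not stated: the list used here held 1243 of the 1249 conservative rows, and the other, tried as an alternative, held all 1249.

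Summits were start plus the deposited offset, set against Ensembl release 115 (WBcel235) and the RefSeq sequence of the same assembly, whose chromosomes contain every peak. Ties in percentiles counted as 0.5, and genes without a peak were set to 0. With 1 group no test between conditions exists; results are counts, levels and percentiles, with no p-value. The scripts were tested on simulated peaks. The 9 members, the 13 and 10 genes compared and the motifs were chosen with earlier results of these data known. Named were all 9 members, sea-1, the 3 highest and the lowest other T-box records, the partners with a conservative summit, and neighbours that hold a named summit. The lowest 3 tied at a level without a peak and all 6 such records are named; tbx-42 had no match in the annotation. The limit of 200 bp from the 5′ end and the motif CACGTG were chosen after values had been seen. Alternatives changed the window, the peak list, the meaning of like length, the value ranked, the rule of overlap and the replicates. Analyses used python 3.11.15, numpy 2.4.6 and pandas 2.3.3.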

Additional observations from a re-analysis of the deposited data

How the results depend on the processing

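tbx-2 remained the single member with a conservative summit with 1000 bp or 5000 bp upstream, upstream DNA alone, the second thresholded list and overlap in place of the summit. With only the conservative peaks at or above that list's median the count was 0, since the tbx-2 peak lies below it, and with either replicate's own list alone it was 0 to 0. Members with a ranked peak in both replicates numbered 6 to 9 under 5 other settings. With 1 replicate's list alone they numbered 9 in replicate 1 and 8 in replicate 2, beside 16360 and 16190 of all 19973 protein-coding genes. Shares of all genes under the 5 settings were not computed, so the counts there are no result about the members.

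The median percentile of the members, 62.3, moved by more than 0.944, the SD between the replicates' medians, under all 10 alternatives. That SD rests on 2 values, 53.8 and 52.4, which are themselves 2 of the alternatives, so moving by more than it says little. For single members the SD between replicates ran from 2.23 at tbx-9 to 53.6 at mls-1. The members' median percentile was 59.0 with like length set to 0.5 to 2 and 51.6 among all coding genes. It was 54.9 with 1000 bp and 47.1 with 5000 bp upstream, and 74.4 with upstream DNA alone. With the other series ranked list it was 51.2, by the number of peaks 54.0 and by the best discovery rate score 58.6. Without replicate 1 or 2 it was 53.8 or 52.4. It lay above 50 in 9 of the 10. tbx-2 had the highest percentile of the members in 7 of the 10; tbx-35 led by the number of peaks, where tbx-2 was at 40.2, tbx-37 without replicate 1 and mls-1 without replicate 2. The cause of these moves was not tested.

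Overlap in place of the summit left the members' median strongest signal at 23.1 in replicate 1 and 21.3 in replicate 2. GGTGTGA stayed at 0 members with 50 bp or 250 bp each side of the summit, while GGTGTG gave 1 member at the strongest peak and 2 promoters. No alternative window gave a member a summit of a replicate's own list. No paired analysis was possible because the study has only 1 group. Leaving out replicates was added to the first 2 counts after seeing the data. Depth is unknown, and a member without a peak is not shown to lack binding.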
